A study of Drosophila sechellia with 6 samples.

Results

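The genes described here are the yolk protein and vitelline membrane genes that the expression table names, chosen by a gene name that starts with Yp or Vm and a digit. The rule found 2 members, *Yp2* and *Vm32E*, among 17275 entries, of which 16471 were not named as structural RNA or microRNA and are called protein-coding below, histone genes included. Poly(A) RNA was sequenced from whole adult female *Drosophila sechellia* of strain 14021-0428.25, a fruit fly that lives on the toxic fruit of *Morinda citrifolia*. Control flies were kept on control food, and the other flies on food with 0.7% octanoic acid (OA), the medium chain fatty acid of that fruit, for 24 hr. Each group had 3 libraries, and each library was made from 10 pooled flies. The sample labels give the age as 1 to 4 d, and their treatment notes as 0 to 3 d at collection. All flies had been reared on cornmeal medium at 20° with 16 hr of light and 8 hr of dark.

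Yolk proteins are the main food store that a fly mother puts into her eggs. In *D. melanogaster* they are made by the fat body and by the follicle cells of the ovary, secreted, and taken up by the growing oocyte, and their genes are active in females after the sex determination cascade and under hormonal control. The vitelline membrane is the innermost layer of the eggshell, which follicle cells secrete around the oocyte after yolk uptake has begun and before they make the outer chorion. In that species *Yp2* thus comes from both tissues, while *Vm32E* comes from follicle cells at a late stage of egg formation.

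The table holds 1 value per gene and group in FPKM, a count of fragments scaled to transcript length and to sequencing depth, so that levels of different genes can be set side by side. No values per library were used, which leaves every gene without an SD, an interval or a test between the groups, and every difference below is one between the authors' group values. In RNA from whole flies, fewer cells of a type and less RNA per cell cannot be told apart.

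*Yp2* was among the most abundant transcripts of these females, and its group value was higher in OA. *Yp2* (FBgn0012788) lies on scaffold 15 of the assembly the authors used, from 661490 to 662936. It stood at 11392 FPKM in control against 15455 FPKM in OA, a ratio of 1.36 of OA over control and a log2 change of 0.44 on the log2(FPKM + 1) scale, which is used for every change below. It ranked 12 among protein-coding entries in control and 6 in OA. The entries next above and below it were at 12223 and 10318 FPKM in control, and at 17467 and 14394 FPKM in OA. *Yp2* took 0.599% of the summed FPKM of protein-coding entries in control and 0.822% in OA.

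*Vm32E*, which encodes a structural protein of the vitelline membrane, had the opposite order of group values. *Vm32E* (FBgn0166052) lies on scaffold 3 from 6572521 to 6572877, a span of 357 bases and a whole number of codons (119). It stood at 984 FPKM in control against 718 FPKM in OA, a ratio of 0.730 of OA over control and a log2 change of -0.45. It ranked 300 among protein-coding entries in control and 370 in OA, and took 0.0517% and 0.0382% of their summed FPKM. Its neighbours in rank were very close, at 985 and 963 FPKM in control and at 719 and 717 FPKM in OA, so that its exact rank carries little information.

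**Figure D1:**
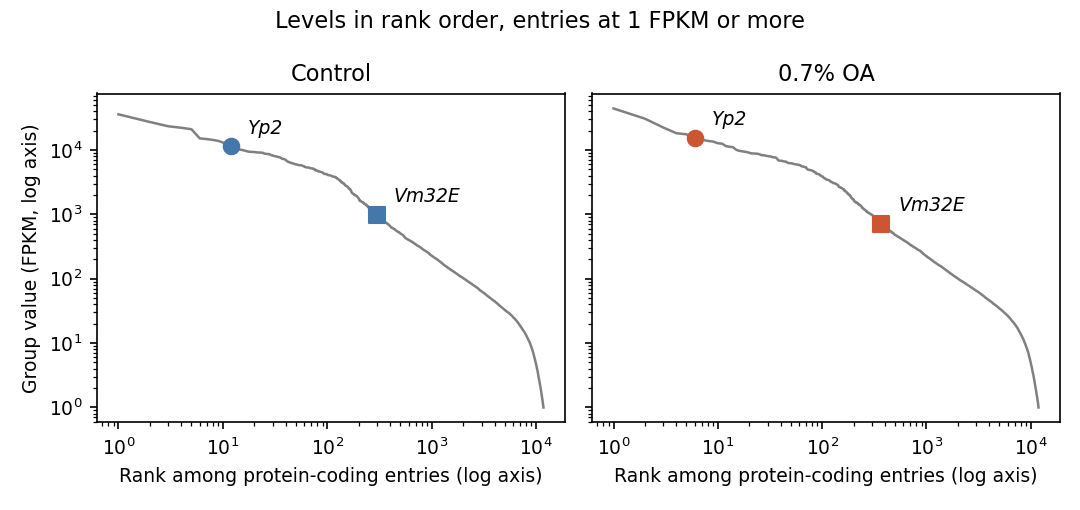
The group value in FPKM (log axis) is plotted against rank among protein-coding entries (log axis) for control and 0.7% OA, with a grey line for all entries at 1 FPKM or more. *Yp2* sits near the top of both curves, at rank 12 and rank 6, and *Vm32E* lies further down, at rank 300 and rank 370.

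The ratio of *Yp2* to *Vm32E* brings both differences together. *Yp2* was at 11.6 times the FPKM of *Vm32E* in control and at 21.5 times in OA, and the ratio was therefore 1.86 times as high in OA. A ratio between genes of the same group does not depend on how the groups were scaled to each other. It still has no error here, because the spread of either gene between the libraries was not measured. How often other pairs of genes differ by as much was not computed.

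The sizes of both differences were then read against all other protein-coding entries. With a fold of 1.5 as the limit, 0 of the 2 members were past it, and the background was 11.5% of the 11871 entries with a mean of at least 1 FPKM (5.96% higher and 5.52% lower in OA). With a lower limit, the ratio given by a rise of 25%, both members were past it, against a background of 32.1%, *Yp2* on the side of the 19% of entries that were higher and *Vm32E* on the side of the 13.1% that were lower. At 2-fold, with a background of 4.56%, 0 members passed. After rescaling of the groups to an equal sum of FPKM over all entries, *Yp2* reached a log2 change of 0.588. That is barely past the 1.5-fold limit of 0.585, on the side of 10.3% of entries in place of 5.96%. In that scaling 73.0% of the entries past 1.5-fold were higher in OA, against 51.9% as deposited. The sum over all entries includes 804 entries named as structural RNA or microRNA. With an equal sum over protein-coding entries alone, the log2 change of *Yp2* was 0.46 and 0 members passed.

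Highly expressed genes give a closer background. Among 2029 protein-coding entries with a mean of at least 100 FPKM the median log2 change was 0.00, 5% of entries lay below -0.60 and 5% above 0.51. Both members lie between these bounds. A change at least as high as that of *Yp2* was found in 144 of these entries (7.10%), the gene itself included. A change at least as low as that of *Vm32E* was found in 172 (8.48%). These shares describe how genes differ from each other and say nothing of the spread between libraries.

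**Figure D2:**
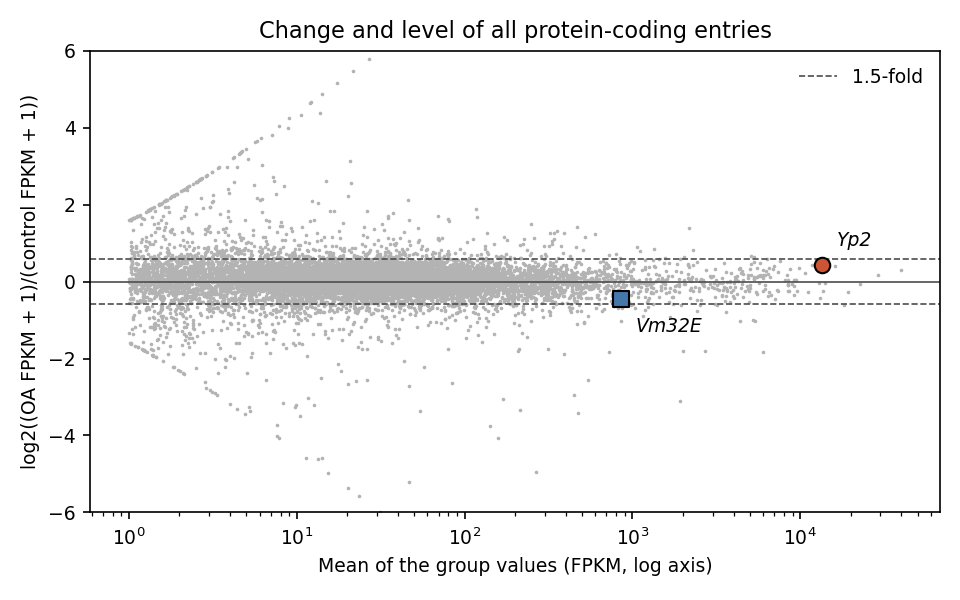
The log2 change of OA over control is plotted against the mean group value (FPKM, log axis) for protein-coding entries with a mean of at least 1 FPKM, with dashed lines at 1.5-fold. *Yp2* (log2 change 0.44) and *Vm32E* (-0.45) lie between the dashed lines, on opposite sides of 0.

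The direction of either gene did not turn under any scaling or pseudocount that was tried. For *Yp2* the log2 change lay between 0.38 and 0.59, and for *Vm32E* between -0.51 and -0.31. Pseudocounts of 0.1 and 10 FPKM left both values as they were to 2 decimals, since both genes are far above these levels. Scaling mattered more, because the total of all entries was 2187136 FPKM in control and 1974062 FPKM in OA, a ratio of 1.11. Over protein-coding entries alone the totals were 1902480 and 1880253 FPKM. Most of the gap between control and OA in the total of all entries thus lay in entries named as structural RNA or microRNA.

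**Figure D3:**
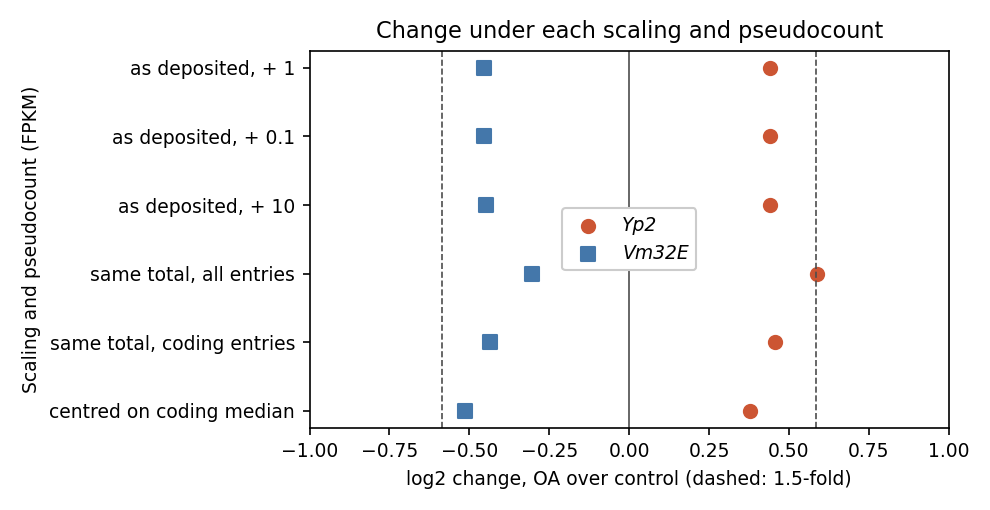
The log2 change of *Yp2* (circles) and *Vm32E* (squares) is plotted for the deposited values with pseudocounts of 1, 0.1 and 10 FPKM, for 2 rescalings to the same total and for centring on the median, with dashed lines at 1.5-fold. Every circle lies above 0 and every square below 0, and 1 circle, that for the total over all entries, reaches the dashed line.

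The file gives no library totals, while the paper reports the mapped reads of each library. The depth behind each value is given per 1000000 mapped fragments, and no counting error was computed. Over its 357 bases, *Vm32E* at its group values would receive about 351 of every 1000000 mapped fragments in control and 256 in OA. Its OA value differed from its control value by -27.0%. *Yp2* would receive at most about 16485 and 22364 of every 1000000 fragments over its 1447 bases, which may include introns. These figures are the product of FPKM and span. They leave out the authors' corrections for sequence bias and length and their geometric normalization, so they are rough values and not counts. Reads could also be shared between members of these families, whose protein sequences are related, and how such reads were counted is not given in the sources used here.

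The surroundings of both genes were examined next, because yolk protein genes *Yp1* and *Yp2* are neighbours in *D. melanogaster* and are read in opposite directions from the stretch between them. No other entry overlaps *Yp2* or *Vm32E*. Of the 6 entries within 20000 bases of *Yp2*, 4 were higher and 2 lower in OA, and 1 of the 6, a low gene, was past 1.5-fold. Of all 16471 protein-coding entries, with no filter on level, 50.2% were higher, 36.6% lower and 10.4% past 1.5-fold. The 2 lower entries have the same coordinates. One of them, below 1 FPKM in both groups, had a ratio of 0.313 and is within 1.5-fold only through the pseudocount. The entry that follows *Yp2* after a gap of 1244 bases, GM11404 (scaffold 15, 664181 to 665567), was singled out after its values were seen. It stood at 13838 FPKM in control against 18184 FPKM in OA, a log2 change of 0.39, and ranked 9 and 4 among protein-coding entries. The file gives GM11404 no gene name and none is assigned here. The other 5 entries around *Yp2* were at or below 39.04 FPKM in both groups, so that *Yp2* and GM11404 stand out together from their surroundings by level.

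*Vm32E* had no such partner. Of the 4 entries within 20000 bases of it, 2 were higher and 2 lower in OA, and 0 were past 1.5-fold. The shares over all protein-coding entries, with no filter, were 50.2%, 36.6% and 10.4%. The nearest one ends 723 bases before *Vm32E* and was at 6.29 FPKM in control against 7.39 FPKM in OA. The most abundant of the 4 was at 334 FPKM in control against 275 FPKM in OA, with a log2 change of -0.28.

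**Figure D4:**
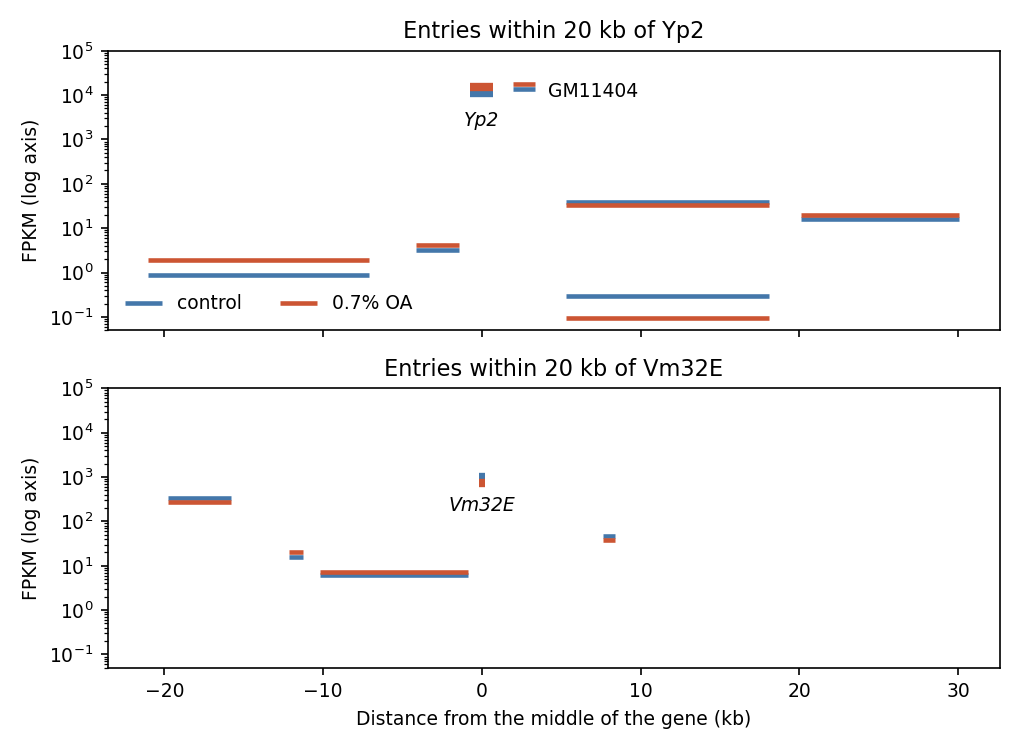
Each bar is an entry of the annotation, drawn at its distance in kb from the middle of *Yp2* (upper panel) or *Vm32E* (lower panel) and at its group value in FPKM (log axis) in control and 0.7% OA. *Yp2* and GM11404 are at 11392 FPKM or more in both groups and the other entries around *Yp2* at or below 39.04 FPKM, while *Vm32E* is alone at its level.

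The genes whose pair of values was most like that of each member were sought by Euclidean distance over log2(FPKM + 1) in control and OA, which is a likeness over 2 values only. The 5 protein-coding entries nearest to *Yp2* lay at distances of 0.27 to 0.48, and GM11404 was the fourth of them. Of these 5, 2 were higher and 3 lower in OA, with log2 changes from -0.24 to 0.42. The 5 nearest to *Vm32E* lay at 0.08 to 0.16, and 5 of 5 were lower in OA, with log2 changes from -0.67 to -0.22. None of these 10 entries has a gene name in the file. Level and direction both enter the distance, so a shared direction among the nearest entries can be a product of the rule. At the distances found around *Vm32E*, an entry has to be lower in OA as well, so that its 5 of 5 carries no information. The entry nearest to *Yp2*, at 0.27, also had to be higher in OA. Only the others around *Yp2* lay far enough away for either direction.

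Other genes of egg formation were looked up from lists of named genes, and few of them carry a name in the file. Of 3 yolk protein genes and 6 vitelline membrane genes in the lists, 1 each was named, *Yp2* and *Vm32E*. Of the chorion, eggshell assembly, yolk uptake, fat body and housekeeping lists, 0 genes were named, so no value is given for those groups. The study picked *Cp16*, *Cp18* and *Cp19* of the chorion list from these samples. Of 16 egg-loaded maternal transcripts 2 were named, and their median log2 change was -0.13, beside 0.06 over the 11871 entries with a mean of at least 1 FPKM. That median is the midpoint of 2 genes of opposite sign and does not describe the list. *nos*, which encodes a translational repressor that directs abdomen formation and germ cell development, stood at 256 FPKM in control against 204 FPKM in OA, a log2 change of -0.33. Its entry overlaps 1 other entry, so reads could be shared between them. *bcd*, which encodes the anterior morphogen of the embryo, stood at 14.1 FPKM in control against 14.8 FPKM in OA, a log2 change of 0.07. Neither gene was past 1.5-fold, against a background of 11.5%. With both groups rescaled to the same total over all entries, the log2 change was -0.18 for *nos* and 0.21 for *bcd*.

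Of 12 genes in the list for the control of yolk protein genes, 1 was named and it was past 1.5-fold. The background at that limit was 11.5% of the entries with a mean of at least 1 FPKM, and 1 gene does not describe the list. The named gene was *tra* (transformer), a splicing regulator of the sex determination cascade. Its female form leads, through *dsx*, to yolk protein expression in *D. melanogaster*. *tra* stood at 56.1 FPKM in control against 181 FPKM in OA, a ratio of 3.22 and a log2 change of 1.67. Under other pseudocounts and scalings the log2 change of *tra* lay between 1.53 and 1.82. Its entry on scaffold 0, from 8674907 to 8675090, spans 184 bases only. By the same rough product of FPKM and span, the values correspond to about 10.3 and 33.3 of every 1000000 mapped fragments. Both are far fewer than for *Vm32E*. What part the short span has in the difference was not tested, and neither was any relation to *Yp2*.

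**Figure D5:**
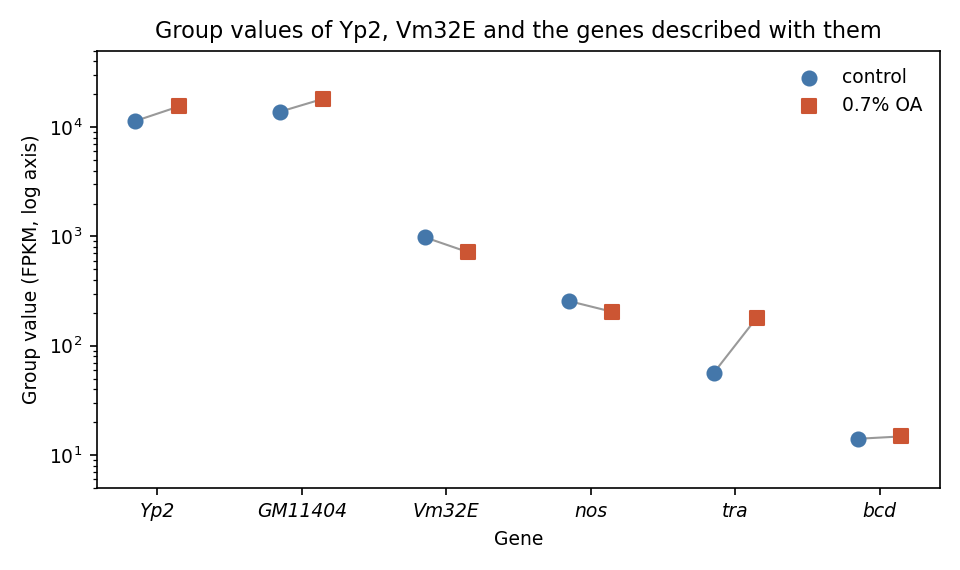
The group value in FPKM (log axis) is shown for *Yp2*, GM11404, *Vm32E*, *nos*, *tra* and *bcd* in control (circles) and 0.7% OA (squares), 1 point per gene and group and no error bars, since the file holds no values per library. *Yp2*, GM11404, *tra* and *bcd* are higher in OA (for *bcd*, 14.1 against 14.8 FPKM) and *Vm32E* and *nos* are lower.

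The label of the samples as female flies was read against genes of male tissue. Of 17 such genes in the list, 8 were named. A mean of 1 FPKM was reached by 0 of the 8, and by 11871 of 16471 protein-coding entries. The highest value among the 8 was 0.810 FPKM. Listed at 0 in both groups were 4 of the 8, and 2652 of all 17275 entries. The 4 included *Acp26Aa*, *Acp26Ab* and *Acp70A*, which encode seminal fluid proteins of the male accessory gland. *Yp2* and *Vm32E*, as products of the female fat body and ovary, were both well above the values of these 8 genes in each group.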

How the data were processed

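Poly(A) RNA from 3 control and 3 OA libraries was sequenced as single-end reads. The authors checked reads with FastQC and aligned them with Bowtie2 at default parameters to the *D. sechellia* genome from Ensembl. Cuffdiff was then run on the gene models of Ensembl release 34, with values normalized geometrically and corrected for length and sequence bias. Tool versions and the handling of strand are not given in the sources used here. The deposited FPKM values are 1 per gene and group over the 3 libraries. The columns that hold the authors' comparison (status, log2 fold change, test statistic, p-value, q-value and call) were not used.

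Groups were taken from the sample titles. The change of a gene was log2((OA FPKM + 1)/(control FPKM + 1)), and entries past 1.5-fold were counted among protein-coding entries with a mean of at least 1 FPKM. With 1 value per group no test was run, and whether libraries came from separate cultures is not stated. Alternatives were pseudocounts of 0.1 and 10 FPKM, a 2-fold limit and a limit of a 25% rise, no filter or a mean of at least 100 FPKM, 2 rescalings and centring. The genes named were the members, genes of the lists that the file names, and the 5 entries nearest to each member where these have a name. GM11404 and the germ line genes of the last section were added after their values were seen. The members and lists were chosen with earlier results of these data known. The file's start coordinates were read as 0-based, because in this way 66.4% of 5796 GM entries shorter than 1000 bases span whole codons, against 17.2% in the other. Printed positions start from 1. The reference gene table, made for another assembly, matched 0 of 17275 entries, and no sequences were used. The counting step was run on simulated data without noise, in which the outcome was fixed, so this checks the code only. The software was Python 3.11.15, pandas 2.3.3, NumPy 2.4.6 and Matplotlib 3.10.9.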

Additional observations from a re-analysis of the deposited data

How the results depend on the processing

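No paired analysis was possible because libraries were merged into group values in the file. Fits that leave out a replicate were not run for that reason.

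A value was counted as moved where it differed by 0.05 or more on the log2 scale, or a share by over 1.5 times. With both groups rescaled to the same total FPKM over all entries, the log2 change was 0.588 for *Yp2* and -0.31 for *Vm32E*. In that scaling 1 member, *Yp2*, was barely past 1.5-fold, a log2 limit of 0.585. With the total over protein-coding entries alone, 0 members were past it. Centred on the median of protein-coding entries, the log2 changes were 0.38 and -0.51. By construction, a limit of a 25% rise took in 2 members and 32.1% of entries, and a 2-fold limit 4.56%. The median change over protein-coding entries, 0.06, was 0.0016 with no filter and -0.00020 with a mean of at least 100 FPKM; the cause was not tested. *dhd* turned to 0.061 with the same total over all entries, and *mael* to -0.041 when centred. Counts of calls higher and lower in OA went from 707 and 655 to 1221 and 451 with that total, and to 577 and 785 when centred. The scalings of counts and of genes other than *Yp2* and *Vm32E* were added after seeing the data. The spread between libraries, which was not measured, limits every comparison.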

Other observations

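Further genes of the germ line and egg that the file names were chosen after their values were seen. *dhd* (deadhead) encodes a thioredoxin of the egg and stood at 8751 FPKM in control against 8238 FPKM in OA, below *Yp2* and above *Vm32E* in both groups. Its log2 change was -0.09, and it ranked 25 and 28 among protein-coding entries. *smg* (smaug), which encodes a regulator of maternal mRNA, stood at 252 FPKM in control against 331 FPKM in OA, a log2 change of 0.39. *plu* (plutonium), which is needed to hold DNA replication in the egg, stood at 81.4 and 63.3 FPKM, a log2 change of -0.36. *mael* and *spn-E*, both of the piRNA pathway that silences transposons, stood at 45.7 and 46.4 FPKM and at 15.9 and 17.6 FPKM, with log2 changes of 0.02 and 0.14, and the entry of each overlaps 1 other entry. The signs of *dhd* and *mael* each turned under 1 of the scalings. As deposited, of these 5 genes 3 were higher and 2 lower in OA, 0 were past 1.5-fold, and their median log2 change was 0.02. Of the 11871 entries with a mean of at least 1 FPKM, 58.3% were higher, 41.7% lower and 11.5% past 1.5-fold. Their median was 0.06, so these counts do not set the 5 genes apart.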
